A study of Mus musculus with 10 samples.

Results

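Fragments of 4 short RNAs, the ribosomal RNAs labelled 5S-rRNA and 4.5S-rRNA and the Y RNAs labelled RNY1-YRNA and RNY3-YRNA, were measured in mouse sperm by small RNA sequencing. They were taken by name from the annotation table of each library, and they are 4 of the 1470 non-overlapping RNA features that the tables list. The libraries came from mature spermatozoa of the tail of the epididymis and the vas deferens of C57BL/6J males. In the HFD-F0 group (n = 5) the males received a high-fat diet with 42% of energy from fat, and in the CD-F0 group (n = 5) a control diet with 10%, in both groups from 4 weeks of age and for 10 weeks. The comparison asks whether the paternal diet altered the small RNA content of sperm. The sources used here do not say whether each library is 1 mouse, so the p-values measure the spread between these libraries.

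5S rRNA is a small RNA of the large ribosomal subunit. Unlike the 5.8S, 18S and 28S rRNAs, which are cut from 1 precursor made by RNA polymerase I, it is transcribed from its own repeated genes by RNA polymerase III. Y RNAs are also products of RNA polymerase III, fold into a stem that is bound by the Ro60 protein, and are known to be cut into short fragments from their ends. 4.5S RNAs are short polymerase III transcripts of rodents that resemble interspersed repeats. The tables call 4.5S a ribosomal RNA, although it is no part of the ribosome, and do not say which 4.5S RNA is meant.

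The sequences of both Y RNAs are shown because reads of 18–30 nt can only be assigned to a member where the members differ. They are the GENCODE transcripts of the mouse genome build GRCm38, written as DNA. In the Y RNAs the capitals mark the runs of at least 8 bases that both contain in the same order.
Rny1, chr6:47788069-47788180, minus strand: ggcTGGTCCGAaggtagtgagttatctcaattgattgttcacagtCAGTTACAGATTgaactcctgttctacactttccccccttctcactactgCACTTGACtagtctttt
Rny3, chr6:47781624-47781725, plus strand: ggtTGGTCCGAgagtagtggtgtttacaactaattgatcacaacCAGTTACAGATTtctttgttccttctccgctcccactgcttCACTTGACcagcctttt

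The genes for both Y RNAs are single exons annotated as miscellaneous RNA. They lie on opposite strands of chromosome 6 with 6343 bases between them. The longest run that both share has 12 bases, and 0 of the 95 windows of 18 bases in Rny1 occurred in Rny3, also with 1 mismatch allowed. A read of that length can therefore tell these Y RNAs apart. It cannot always tell a Y RNA from its copies, since 56 of the 95 windows of Rny1 also occurred in 8 other annotated genes, all of the type miscellaneous RNA. For Rny3, 3 of 85 windows occurred in 1 other gene, Pemt, an enzyme of phosphatidylcholine synthesis. For 5S rRNA, 181 annotated genes on 21 chromosomes carry its name, and the tables do not separate them. RefSeq lists a gene Rn4.5s on chromosome 6 from 47654921 to 47655094 in GRCm38.p6, which was matched by name only.

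Each library held 29558751 to 32178088 clean reads, of which 64.9 to 75.2% matched the genome in CD-F0 and 73.3 to 74.7% in HFD-F0. CD-F0 replicates 1, 4 and 5, at 64.9, 69.2 and 68.6%, lay below every HFD-F0 library. Reads of the 4 RNAs made up 0.303 to 0.525% of the clean reads, and every one of them matched the genome. Reads of 5.8S-rRNA, in contrast, were 84.7 to 98.9% without a genome match. The libraries held 71328 to 149454 reads of 5S-rRNA, 5549 to 13818 of 4.5S-rRNA, 4273 to 15601 of RNY1-YRNA and 1845 to 4759 of RNY3-YRNA. At these depths the 95% Wilson interval for counting error reached at most 0.733% of the value on either side for 5S-rRNA and 4.56% for RNY3-YRNA, the scarcest, less than the spread between libraries. Marker miRNAs of male germ cells were detected in every library, 12 of 12, as were 6 of 6 markers of epididymal epithelium, 6 of 6 of muscle and 9 of 9 of blood and immune cells. Their mean sums in CD-F0 and HFD-F0 were 13717 and 12612 RPM for germ cells and 26249 and 29305 RPM for muscle. For epididymal epithelium they were 5519 and 6890 RPM, and for blood and immune cells 4549 and 4863 RPM. The muscle sum was mostly mmu-mir-143, with a log2 fold change of HFD-F0 over CD-F0 of 0.02. The muscle marker mmu-mir-145a was higher in HFD-F0 (log2 fold change 1.09, edgeR unadjusted p = 0.0151, adjusted p = 0.293). The remaining muscle markers ran from -0.70 for mmu-mir-206 to 0.11 for mmu-mir-133b. Fewer cells of a type and less RNA per cell cannot be told apart in these libraries.

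5S-rRNA was the most abundant of the RNAs, with 73.4 to 89.5% of their reads. In the CD-F0 replicates 1 to 5 its level was 2874, 4235, 4580, 4208 and 3405 reads per 1000000 clean reads (RPM), and in the HFD-F0 replicates 2902, 4173, 4645, 2936 and 2413 RPM. The groups overlapped, with 1 HFD-F0 library above and 1 below the whole CD-F0 range. The mean was 3860 ± 700 RPM (SD, n = 5) in CD-F0 and 3414 ± 946 RPM (SD, n = 5) in HFD-F0, a difference smaller than the SD of either group (two-sided exact permutation test, p = 0.389, and 0.910 adjusted over 814 features). Among all rRNA reads, 5S-rRNA had a share of 0.779 to 1.80%.

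4.5S-rRNA stood at 256, 265, 236, 251 and 177 RPM in the CD-F0 replicates 1 to 5 and at 253, 236, 291, 432 and 291 RPM in the HFD-F0 replicates. In HFD-F0, 3 of 5 libraries lay above every CD-F0 library, and the CD-F0 library of replicate 5 was the lowest of the 10. The mean was 237 ± 35.1 RPM in CD-F0 and 301 ± 77.4 RPM in HFD-F0 (SD, n = 5 each), and the difference did not pass the two-sided exact permutation test (p = 0.0873, and 0.613 adjusted over 814 features). Replicate 4 of HFD-F0 held the highest level, and without it the difference fell from 63.7 to 30.8 RPM. That library also had the lowest summed level of the male germ cell markers, 9017 RPM, with none of the 12 markers at 0. The other HFD-F0 libraries held 11105 to 17536 RPM and CD-F0 12213 to 14889 RPM. Its muscle and epididymal markers, at 35302 and 7229 RPM, were exceeded only in HFD-F0 replicate 1, and its blood and immune markers stood at 4139 RPM. HFD-F0 replicate 2, next lowest in the germ cell markers at 11105 RPM, had the lowest 4.5S-rRNA of its group, 236 RPM. The part of these markers in the 4.5S-rRNA level was not tested.

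RNY1-YRNA varied most from library to library, within both groups. Its level was 140, 235, 158, 300 and 428 RPM in the CD-F0 replicates 1 to 5 and 193, 487, 251, 480 and 206 RPM in the HFD-F0 replicates. Replicates 2 and 4 of HFD-F0 exceeded every CD-F0 library, while the other 3 lay inside the CD-F0 range. The mean was 252 ± 117 RPM in CD-F0 and 323 ± 148 RPM in HFD-F0 (SD, n = 5 each; two-sided exact permutation test, p = 0.381, and 0.910 adjusted over 814 features).

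RNY3-YRNA was the least abundant, at 98.2, 74.4, 145, 67.6 and 58.9 RPM in the CD-F0 replicates 1 to 5 and 109, 63.2, 63.0, 149 and 119 RPM in the HFD-F0 replicates. The groups overlapped almost completely, and 1 HFD-F0 library lay above the CD-F0 range. The mean was 88.9 ± 34.8 RPM in CD-F0 and 101 ± 37.3 RPM in HFD-F0 (SD, n = 5 each; two-sided exact permutation test, p = 0.587, and 0.923 adjusted over 814 features). Reads of RNY1-YRNA and RNY3-YRNA together accounted for all reads of the Y RNA class, and no other Y RNA was listed.

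**Figure D1:**
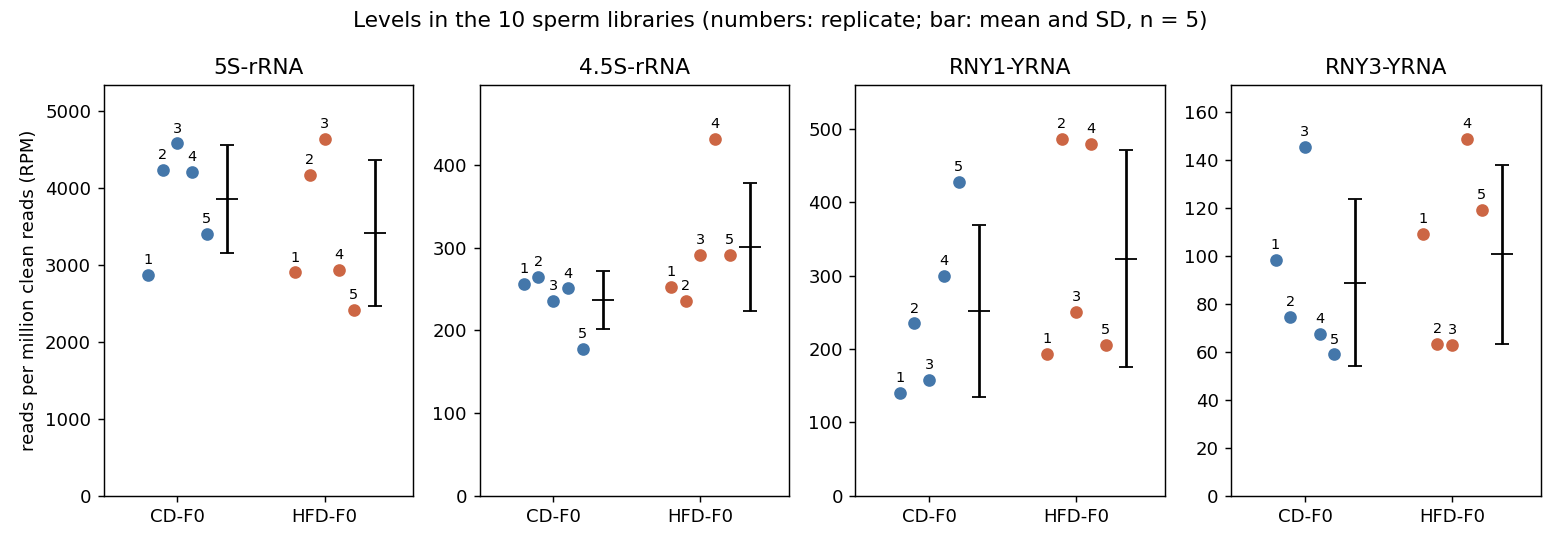
Level of each RNA (RPM, vertical axis from 0, a separate scale for each panel) in the CD-F0 and HFD-F0 libraries, with points numbered by replicate and a black bar for the mean and SD (n = 5). The groups overlap in all 4 panels, and HFD-F0 replicate 4 stands apart at 432 RPM in the 4.5S-rRNA panel.

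Spread over the 10 libraries differed between the RNAs. The coefficient of variation was 22.5% for 5S-rRNA, 24.5% for 4.5S-rRNA, 36.5% for RNY3-YRNA and 45.6% for RNY1-YRNA, against a median of 29.1% over the 814 features that passed the filter on low counts. The highest library exceeded the lowest 1.92-fold for 5S-rRNA, 2.44-fold for 4.5S-rRNA, 2.53-fold for RNY3-YRNA and 3.47-fold for RNY1-YRNA. Both rRNA labels thus lay below the median feature in spread and both Y RNAs above it.

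Levels of different RNAs were set side by side per length, with the RefSeq gene lengths of 121 nt for 5S, 174 nt for 4.5S, 111 nt for Rny1 and 101 nt for Rny3. Per 100 nt the mean level over the 10 libraries was 3006 RPM for 5S-rRNA, 259 RPM for RNY1-YRNA, 155 RPM for 4.5S-rRNA and 93.9 RPM for RNY3-YRNA. With these lengths the order held in 8 of 10 libraries. In CD-F0 replicate 1, 4.5S-rRNA came before RNY1-YRNA, and in CD-F0 replicate 3 the order after 5S-rRNA was RNY3-YRNA, RNY1-YRNA and 4.5S-rRNA. The ranges of the 3 lower RNAs overlapped, at 126 to 439 RPM per 100 nt for RNY1-YRNA, 102 to 249 for 4.5S-rRNA and 58.3 to 147 for RNY3-YRNA, while 5S-rRNA lay above them at 1994 to 3838. The place of 4.5S-rRNA rests on the 174 nt of a gene matched by name, and which 4.5S RNA was counted is not stated. With a shorter length its level per 100 nt would be higher, and its order against RNY1-YRNA could change.

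**Figure D2:**
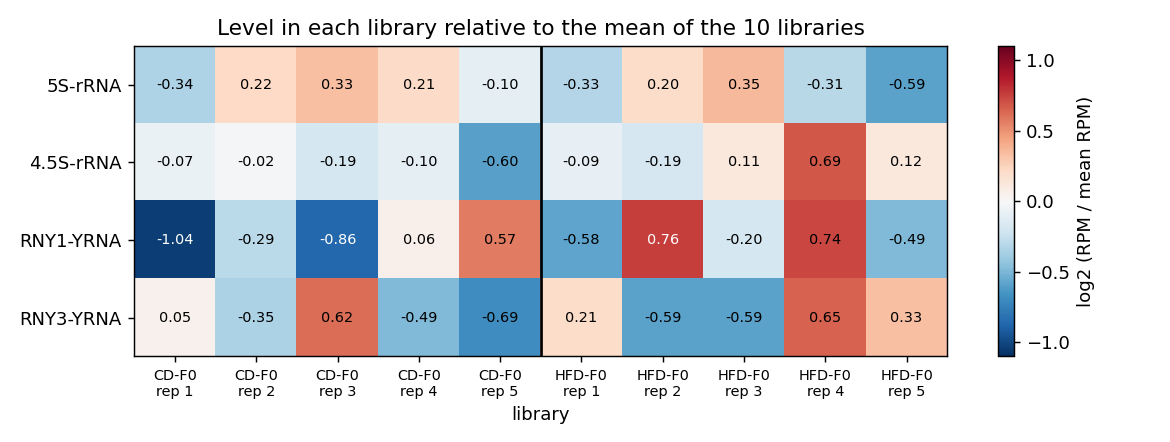
Level of each RNA (rows) in each of the 10 libraries (columns, CD-F0 left and HFD-F0 right of the black line) as the log2 of its RPM over its mean RPM in all libraries, printed in each cell. RNY1-YRNA spans -1.04 to 0.76, and HFD-F0 replicate 4 is high for 4.5S-rRNA (0.69), RNY1-YRNA (0.74) and RNY3-YRNA (0.65) but low for 5S-rRNA (-0.31).

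In the edgeR quasi-likelihood fit over all features, 0 of the 4 RNAs passed the thresholds of the study, p at most 0.05 and an absolute log2 fold change of at least 1. Over all 814 features the fit called 30, which is 3.69%. At p alone 0 of 4 passed as well, against 10.2% of all features in either direction and 6.14% higher in HFD-F0. The groups of none of the 4 were without overlap, against 3.93% of all features. With 4 RNAs, a count of 0 is near these background shares.

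The fitted log2 fold change of HFD-F0 over CD-F0 was -0.26 for 5S-rRNA (SE 0.20, 95% interval -0.70 to 0.19, edgeR adjusted p = 0.702). For 4.5S-rRNA it was 0.26 (SE 0.21, 95% interval -0.20 to 0.71, edgeR adjusted p = 0.718). Both intervals ended short of a log2 change of 1 in either direction. RNY1-YRNA had a log2 fold change of 0.30 (SE 0.38, 95% interval -0.53 to 1.13, edgeR adjusted p = 0.898), so that a change at the threshold was not excluded by its interval. RNY3-YRNA had 0.09 (SE 0.31, 95% interval -0.58 to 0.76, edgeR adjusted p = 0.955). Single libraries set much of these values. The log2 fold change of 5S-rRNA was -0.17 without HFD-F0 replicate 5 and -0.39 without HFD-F0 replicate 3. For 4.5S-rRNA it was 0.06 without HFD-F0 replicate 4, for RNY1-YRNA it was 0.07 without HFD-F0 replicate 2 or replicate 4 and 0.55 without CD-F0 replicate 5, and for RNY3-YRNA it turned to -0.13 without HFD-F0 replicate 4.

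Of the 4 rRNAs of the polymerase I unit (5.8S, 18S, 28S and the 45S precursor), 0 were called in either direction, and 1, 5.8S-rRNA, passed at p alone and was lower in HFD-F0. 5.8S-rRNA, at 127504 ± 30778 RPM in CD-F0 and 86650 ± 19798 RPM in HFD-F0 (SD, n = 5 each), had a log2 fold change of -0.68 (SE 0.21, 95% interval -1.13 to -0.24, edgeR adjusted p = 0.225), short of the fold threshold and farther from 0 than that of any of the 4 RNAs. The mitochondrial 12S-rRNA and 16S-rRNA had log2 fold changes of -0.05 and 0.13, and 0 of 2 were called. Of 196 fragments of nuclear tRNAs, the largest group of polymerase III products, 3 were called higher and 0 lower, with a median log2 fold change of 0.01. For the selenocysteine tRNA 0 of 4 fragments were called, with a median of -0.06. The 4 RNAs had a median of 0.17, and all 814 features -0.01 with 17 called higher and 13 lower. U6, 7SK, 7SL, Rmrp, Rpph1, vault RNA, Bc1, RNY4 and RNY5 were not listed by name in the tables.

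**Figure D3:**
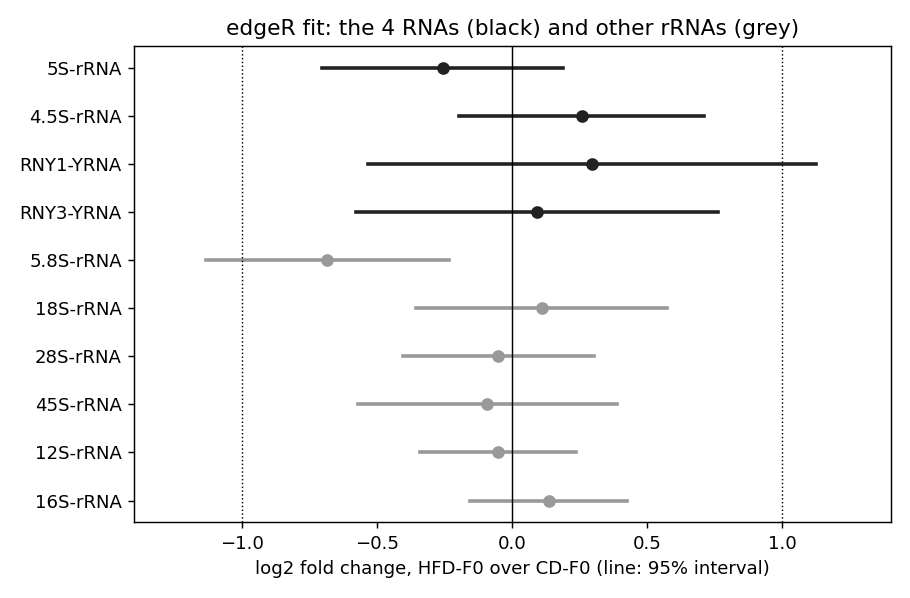
Log2 fold change of HFD-F0 over CD-F0 from the edgeR fit (horizontal axis, points) with its 95% interval (lines) for the 4 RNAs in black and 6 other rRNAs in grey, with dotted lines at the fold threshold of 1 in each direction. The intervals of the 4 RNAs include 0, and that of 5.8S-rRNA runs from -1.13 to -0.24.

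Ratios within a library do not depend on its depth. The ratio of 5S-rRNA to the sum of 5.8S, 18S and 28S, products of different polymerases, ranged from 0.00892 to 0.0221 in CD-F0 and from 0.0114 to 0.0222 in HFD-F0. The mean log2 ratio differed by -0.008 (two-sided exact permutation test, n = 5 each, p = 0.984, and 0.984 adjusted over 3 ratios). There were 11.2 to 19.4 reads of 5S-rRNA for each read of 4.5S-rRNA in CD-F0 and 6.79 to 17.7 in HFD-F0, with medians of 16.8 and 11.5. This ratio was lower in HFD-F0 by a mean log2 difference of -0.52, which did not pass the test (two-sided exact permutation test, n = 5 each, p = 0.119, and 0.357 adjusted over 3 ratios).

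The ratio of the Y RNAs to each other varied far more than either rRNA. There were 1.09 to 7.26 reads of RNY1-YRNA for each read of RNY3-YRNA in CD-F0 and 1.72 to 7.70 in HFD-F0, a 7.08-fold span over the 10 libraries. In shares, RNY1-YRNA took 52.1% of the Y RNA reads in CD-F0 replicate 3 and 88.5% in HFD-F0 replicate 2. The groups did not differ beyond this spread (mean log2 difference 0.19, two-sided exact permutation test, n = 5 each, p = 0.770, and 0.984 adjusted over 3 ratios).

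Across the 10 libraries no pair of the 4 RNAs had a correlation of RPM that passed after adjustment over the 6 pairs. The highest was between 4.5S-rRNA and RNY3-YRNA (Pearson r = 0.57, permutation p = 0.0717, adjusted p = 0.430, Spearman rho = 0.43, permutation p = 0.220). It rested on the 2 libraries with the most extreme 4.5S-rRNA, CD-F0 replicate 5 and HFD-F0 replicate 4, since r was -0.14 without them. RNY1-YRNA and RNY3-YRNA, which share a genomic neighbourhood and a binding protein, had r = -0.23 (permutation p = 0.509, adjusted p = 0.687) and rho = -0.39 (permutation p = 0.262). Without HFD-F0 replicates 2 and 4, the libraries highest in RNY1-YRNA, r was -0.73 in the remaining 8 (unadjusted exact permutation p = 0.0310) and rho was -0.81. HFD-F0 replicate 4 was high in both Y RNAs, whereas HFD-F0 replicate 2 was high in RNY1-YRNA and low in RNY3-YRNA.

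For the other pairs, 5S-rRNA had r = -0.28 with 4.5S-rRNA (rho = -0.26, permutation p = 0.492 and 0.470), r = 0.04 with RNY1-YRNA (rho = 0.19, permutation p = 0.916 and 0.607) and r = -0.40 with RNY3-YRNA (rho = -0.36, permutation p = 0.247 and 0.313). 4.5S-rRNA had r = 0.22 with RNY1-YRNA (rho = -0.03, permutation p = 0.572 and 0.946). After adjustment over the 6 pairs the p-values of these r ran from 0.687 to 0.916 and those of rho from 0.626 to 0.946. Without the 2 libraries most extreme in the RNA named first, r became -0.32, -0.36, -0.33 and -0.27 in the same order. The values share a denominator, the clean reads of the library.

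The features whose log2 CPM (counts scaled as in the edgeR fit) followed each RNA most closely over the 10 libraries are given as a description, with no test, the 3 highest r of 813 features for each. For 5S-rRNA they were mmu-mir-451a (r = 0.78), a miRNA of red blood cells, the 5′ end of tRNA-Val-AAC (0.76) and the 3′ end of tRNA-Ser-CGA (0.75). mmu-mir-451a is in the list of blood and immune markers, whose sum was 3723 to 5553 RPM in CD-F0 and 3261 to 6178 RPM in HFD-F0 with none of its 9 members at 0. The summed list followed 5S-rRNA in some libraries and not in others. Its lowest sum, 3261 RPM in HFD-F0 replicate 5, fell where 5S-rRNA was lowest, at 2413 RPM. It stood at 5553 RPM in CD-F0 replicate 3 and 6178 RPM in HFD-F0 replicate 2, where 5S-rRNA was high. It also stood at 5228 RPM in CD-F0 replicate 1 and 5607 RPM in HFD-F0 replicate 1, where 5S-rRNA was low. Its CD-F0 minimum, 3723 RPM, fell in replicate 4, where 5S-rRNA was high. The part of blood cells in the 5S-rRNA level was not tested. For 4.5S-rRNA they were internal fragments of mitochondrial tRNA-Gly-TCC (0.84), of tRNA-Asp-GTC (0.77) and of mitochondrial tRNA-Ser-GCT (0.77). For RNY3-YRNA they were mmu-mir-1187 (0.80), mmu-mir-490 (0.79) and the 5′ end of mitochondrial tRNA-Trp-TCA (0.77). The median r over 813 features was 0.04 for 5S-rRNA, 0.05 for 4.5S-rRNA and -0.06 for RNY3-YRNA. The lowest r was -0.83 for 5S-rRNA, -0.83 for 4.5S-rRNA and -0.78 for RNY3-YRNA, about as far from 0 as the highest.

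RNY1-YRNA was followed most closely by mmu-mir-486b (r = 0.88), the tRNA-Gly-GCC 5′ end (0.88) and mmu-mir-486a (0.88). Over the 813 features r ran from -0.88 to 0.88, with a median of 0.05. The highest of so many values lie far from the median by selection. The mir-486 hairpins lie opposite each other at 1 locus and can share reads, and both are in the list of blood and immune markers. mmu-mir-486b stood at 10.6, 12.7, 9.43, 18.6 and 25.9 RPM in the CD-F0 replicates 1 to 5 and at 8.31, 71.6, 24.6, 44.6 and 5.90 RPM in the HFD-F0 replicates. The fragment from the 5′ end of tRNA-Gly-GCC, which the study followed, stood at 707, 1891, 1627, 1659 and 2929 RPM in CD-F0 and at 949, 5132, 2784, 6192 and 2117 RPM in HFD-F0. Its 2 highest libraries, HFD-F0 replicates 2 and 4, were also the highest for RNY1-YRNA and mmu-mir-486b, and CD-F0 replicate 5 was the highest CD-F0 library for all of them. In the edgeR fit neither was called. The log2 fold change was 0.93 for the tRNA-Gly-GCC 5′ end (edgeR unadjusted p = 0.0797, adjusted p = 0.514) and 0.96 for mmu-mir-486b (edgeR adjusted p = 0.614). The study reported its tRNA-Gly-GCC fragment as increased in HFD-F0 sperm, by sequencing and by Northern blot. The value here sums all reads of that 5′ end, a different measure, and is no test of that report. The summed blood and immune markers ranked the libraries differently from RNY1-YRNA. In this sum mmu-mir-146a weighed most, with a mean of 2840 CPM in CD-F0 and 2714 CPM in HFD-F0. Its log2 fold change was -0.07, and that of mmu-mir-451a was -0.29. The other markers of the list were higher in HFD-F0, from 0.15 for mmu-mir-142a to 0.98 for mmu-mir-486a. Of these, mmu-mir-223 passed at p alone (log2 fold change 0.44, edgeR unadjusted p = 0.0052, adjusted p = 0.225). The summed markers stood at 6178 RPM in HFD-F0 replicate 2, 4139 RPM in HFD-F0 replicate 4 and 4141 RPM in CD-F0 replicate 5, all high in RNY1-YRNA. They stood at 5607 RPM in HFD-F0 replicate 1 and 5553 RPM in CD-F0 replicate 3, both low in RNY1-YRNA. The marker mmu-mir-451a was highest of all libraries in HFD-F0 replicate 2, at 1891 RPM. It was at 757 RPM in HFD-F0 replicate 4 and, at 782 RPM in CD-F0 replicate 5, lowest of the CD-F0 libraries. The part of blood cells in the RNY1-YRNA level was not tested.

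**Figure D4:**
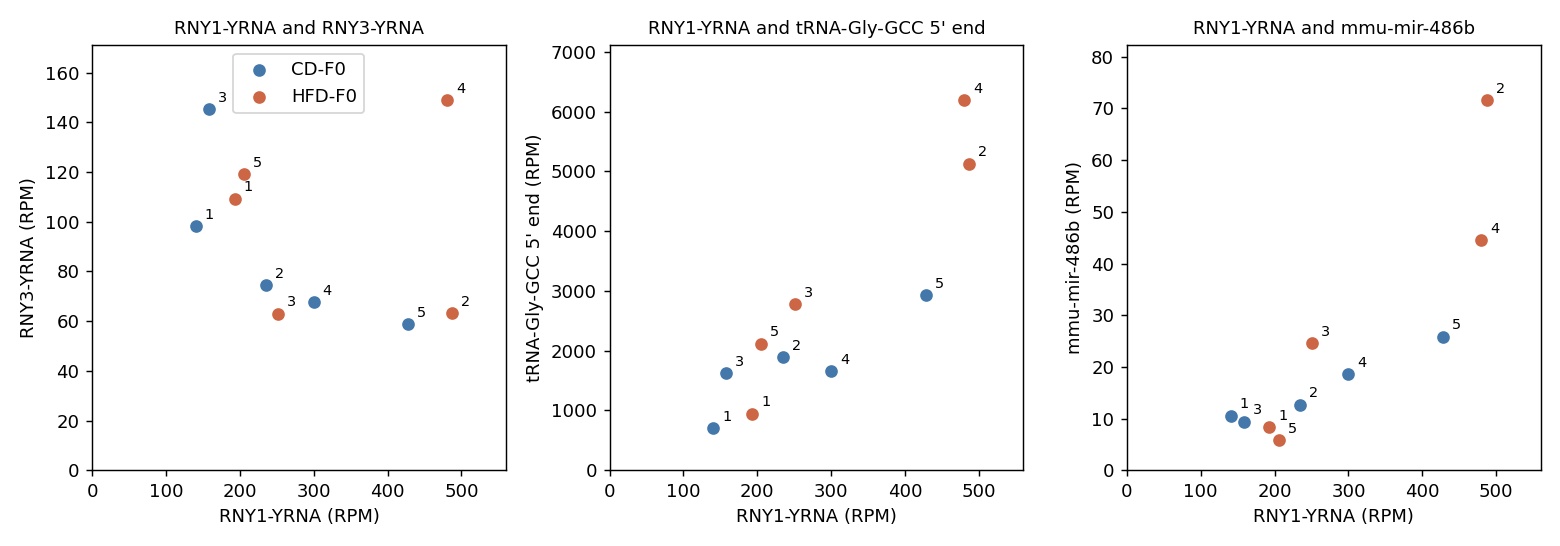
RNY1-YRNA (RPM, horizontal axes) against RNY3-YRNA, the tRNA-Gly-GCC 5′ end and mmu-mir-486b (RPM, vertical axes), with 1 point per library, numbered by replicate. HFD-F0 replicates 2 and 4 lie at the upper right of the middle and right panels, and in the left panel replicate 4 lies high and replicate 2 low.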

How the data were processed

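Sperm small RNA libraries of HFD-F0 (n = 5) and CD-F0 (n = 5) were analysed from the annotation tables that the authors deposited. RNA of 18–30 nt was cut from a gel, joined to adapters that carry molecular identifiers, and sequenced on a DNBSEQ instrument. The authors assigned clean reads to RNA classes with SPORTS and Bowtie on mm10 (GRCm38) with up to 1 mismatch. The deposited values are estimated counts of reads per class and subclass, in which a read that fits several features is divided. All counts of the 4 RNAs were whole numbers. Because of the gel band the values describe fragments, not whole RNAs, and the tables used here give no read positions.

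Genome-matched and unmatched reads were added, rounded and fitted for 814 of 1470 features (filterByExpr) with edgeR 4.0.16 in R 4.3.3 (TMM, quasi-likelihood test, Benjamini-Hochberg adjustment). RPM was tested by exact permutation over 252 splits, for which the smallest p is 0.00794, and correlations with 100000 permutations (Python 3.11.15, scipy 1.17.1). In data simulated for this comparison over 796 features, the fit recovered 193 of 195 changed by a log2 fold change of 2. It also called 5 of 601 unchanged features. Changes at the threshold of 1 or below were not simulated. DESeq2 1.42.0, other scalings, filters and denominators, and the omission of each library were tried. No 2 libraries agreed within sampling noise. Named features were the 4 RNAs, the 3 features with the highest r for each (log2 CPM, prior count 2), other rRNAs and other polymerase III products. The members and lists were chosen with earlier results of these data known. The sequence of 5S rRNA is not reported here.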

Additional observations from a re-analysis of the deposited data

Results flagged for a closer look

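Of 14 groups of 5 values examined for a library far from the others, 1 was flagged. 4.5S-rRNA stood at 432 RPM in HFD-F0 replicate 4, and the next highest HFD-F0 library held 291 RPM, a gap that is large against the range of the group. Chance flags about 1 in 20 such groups.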

How the results depend on the processing

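Of 195 alternative values for 18 results, 176 kept their direction and side of the threshold, and 0 of the 4 RNAs were called under any of them. Without the 2 libraries farthest from the median, r was -0.36 for 5S-rRNA with RNY1-YRNA, -0.27 for 4.5S-rRNA with RNY1-YRNA, -0.14 for 4.5S-rRNA with RNY3-YRNA and -0.73 for RNY1-YRNA with RNY3-YRNA. Leaving out 1 library at a time moved the log2 fold change of RNY3-YRNA from -0.13 to 0.31 and its RPM difference from -0.201 to 26.0, the log2 ratio of 5S-rRNA to the 45S unit from -0.21 to 0.12 and that of RNY1-YRNA to RNY3-YRNA from -0.15 to 0.54. The 5S-rRNA difference ran from -754 to -196 RPM, and was -838 with genome-matched reads as the denominator. The 4.5S-rRNA difference ran from 30.8 to 79.9 RPM, the latter without HFD-F0 replicate 2 (unadjusted exact permutation p = 0.0238). With genome-matched reads as the denominator it was 69.9 (unadjusted exact permutation p = 0.246, against 0.0873 with clean reads). The cause of these shifts was not tested.

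Same-numbered libraries had correlations of 0.34, -0.09, 0.25, -0.19 and -0.14. Only replicates 1 and 3 correlated best with their own number, in both directions. The replicate numbers thus did not pair the samples throughout, and whether they stand for a shared batch is not stated. With the replicate block the log2 fold change was -0.30 for 5S-rRNA, 0.23 for 4.5S-rRNA, 0.27 for RNY1-YRNA and 0.08 for RNY3-YRNA. For 5S-rRNA the SE was 0.15 with the block and 0.20 without it (edgeR unadjusted p = 0.0831 and 0.231). The block left 0 of 4 called, with 25 features called in place of 30. Without the filter on low counts 93 features were called, with at least 10 counts in every library 19, and without CD-F0 replicate 5 50. DESeq2 called 28. The share of genome-matched reads was 100% for the 4 RNAs in every library, so that its planned test could not be made.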
